A study of Mus musculus with 26 samples.

Results

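Mast cells and their progenitors store preformed mediators in secretory granules and release them by regulated exocytosis. The transcripts of 40 genes that dock granules at the plasma membrane, prime them and fuse the membranes were followed here, chosen by gene symbol from the known machinery. All 40 symbols matched 1 gene each among the 52636 genes of the deposited tables. Bone marrow cells of wild-type mice (WT) and of littermates that lack neutrophil serine protease 4 (KO, Prss57-/-) were profiled by bulk RNA sequencing. The KO allele is a germline deletion of a single Prss57 exon in all cells. Common myeloid progenitors (CMPs, 4 WT and 4 KO libraries) and granulocyte-macrophage progenitors (GMPs, 4 and 4) were sorted from female marrow. Both gates required lineage-negative, SCA-1-negative, CD117-positive and CD34-positive cells, and CD16/32 was low on CMPs and high on GMPs. Bone marrow-derived mast cells (BMMCs, 5 and 5) were grown from sorted GMPs of male mice with IL-3 and SCF and were sequenced in a run of their own. Between BMMCs and progenitors, the effects of cell type, sex, culture and sequencing run thus cannot be told apart. The libraries carry no treatment, and the ages of the mice are not given in the sources used here.

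Granule release follows a fixed order of protein contacts. Rab GTPases mark the granule, their effectors (the synaptotagmin-like proteins) tether it, Munc13 and Munc18 proteins prepare the fusion site, and SNARE proteins on the granule (R-SNAREs, the Vamps) and on the target membrane (Q-SNAREs, the syntaxins and Snaps) zip together. Calcium sensors and complexins time the last step in neurons, and NSF with its adaptor alpha-SNAP takes spent SNARE complexes apart. Mast cells are known for rapid release of granules after IgE receptor cross-linking and for fusion of granules with each other.

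Libraries held 18627626 to 28647216 counted reads for BMMCs, 35501671 to 51497962 for GMPs and 32078404 to 53264762 for CMPs. Levels are given as nRPKM, the deposited RPKM adjusted by a size factor for each library, which can be compared between genes because they are per length. Prss57 had 0 reads in the 5 KO BMMC libraries, 1 in each KO CMP library and 6 to 25 in KO GMPs, against 18064 to 26556 in WT GMPs, so the genotype labels held in the progenitors. WT BMMCs had only 2 to 27 Prss57 reads. The mast cell markers summed to 25305 to 76155 nRPKM in BMMCs, 498 to 742 in GMPs and 187 to 222 in CMPs, where Mcpt4 was at 0 in every library. One library stood apart in BMMCs: KO library 3 had a median correlation of 0.922 with its group, and its macrophage markers summed to 91.7 nRPKM against 873 to 1330 in the other 9 BMMC libraries (6 of 6 markers detected, none at 0). In CMPs, KO library 2 had a summed level of 785300 nRPKM against 336100 to 481000 in the other 7, and its megakaryocyte and platelet markers summed to 2841 nRPKM against 800 to 1476. Most of that sum was Pf4, at 2561 nRPKM against 632 to 1277, and Gp9 was also above the other 7. Itga2b, Gp1bb and Ppbp of the same list lay within the range of the other 7.

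Most of the 40 genes were detected in all 3 cell types. In every library of the cell type, 32 genes in CMPs, 34 in GMPs and 35 in BMMCs had more than 3 reads, the number taken here as the detection floor. Vamp8, the endobrevin R-SNARE of late endosomes and mast cell granules, was the most abundant member in both progenitors, with 146 ± 26.9 nRPKM (SD, n = 4) in WT CMPs and 118 ± 20.4 (n = 4) in WT GMPs. In WT BMMCs the first place went to Rab38, a Rab of lysosome-related organelles, at 141 ± 9.04 nRPKM (n = 5), followed by the late endosomal Rab7 at 133 ± 3.32 and Vamp8 at 92.8 ± 3.60. Rab38 and the R-SNARE Vamp3 (cellubrevin) came next in WT CMPs, and Rab27a and Rab32 in WT GMPs. The calcium sensors of fast neuronal release were at the bottom. Syt1 had 1 read in 1 of 26 libraries, and Syt2 had 1 or 2 reads in 3 of 26, so neither exceeded the floor in any library. Doc2a, another C2-domain calcium sensor, had 0 to 13 reads and was too low for a test between groups.

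**Figure D1:**
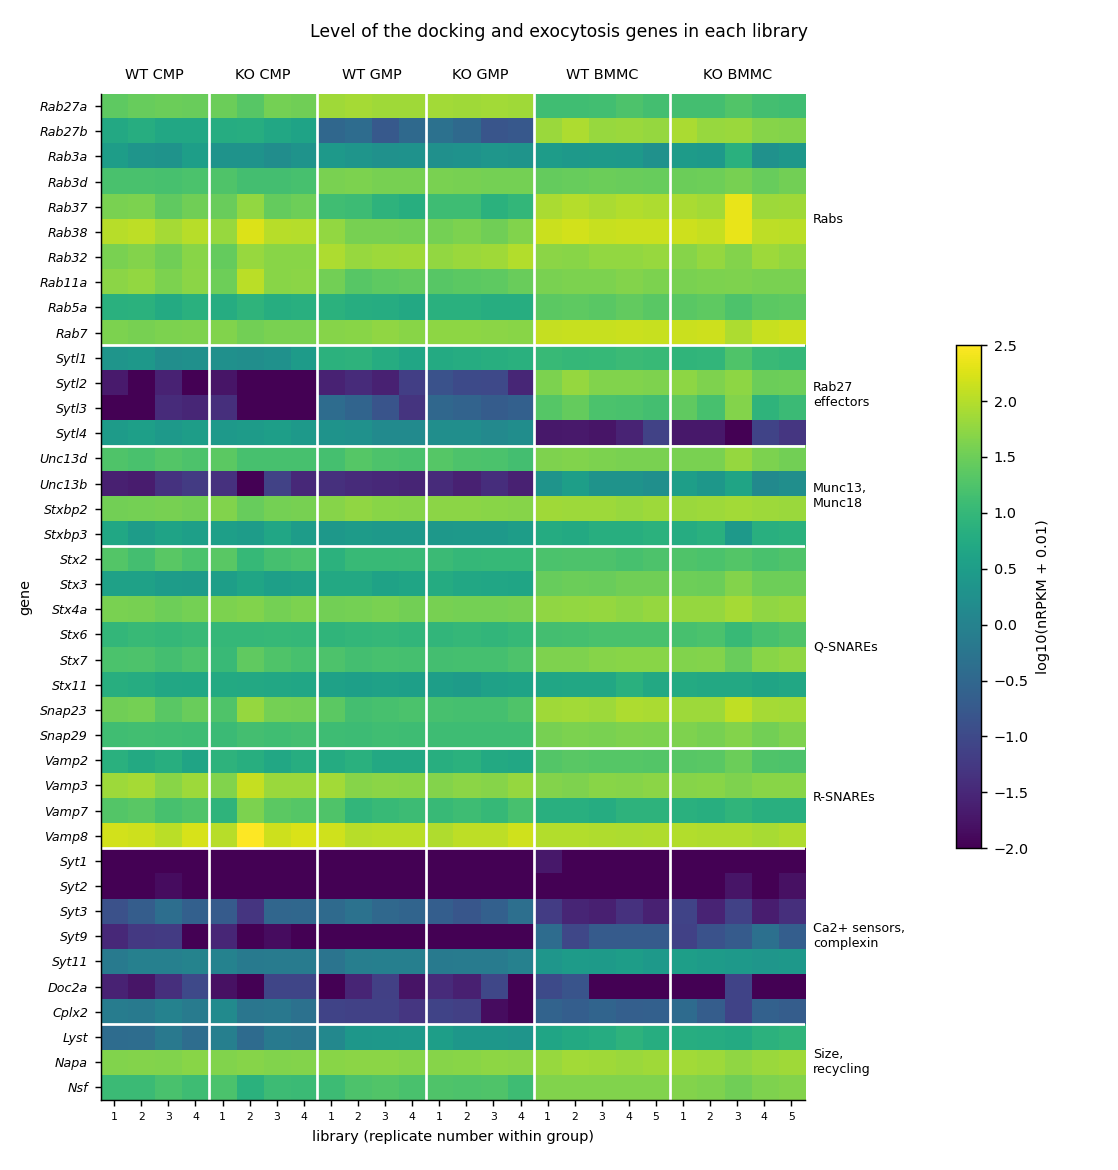
Level of each of the 40 genes (rows, ordered by role) in each of the 26 libraries (columns, by group and replicate number), as log10(nRPKM + 0.01). Rab27b, Sytl2, Sytl3 and Unc13b brighten in the 10 BMMC columns while Sytl4 darkens, and Syt1 and Syt2 stay dark in every column.

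The comparison of GMPs with CMPs asks which parts of the machinery differ between these neighbouring progenitors. A gene was called when its edgeR adjusted p was under 0.01 and its fold change at least 2. In WT cells 4 of 34 members tested were higher in GMPs (6.28% of all genes tested were called higher) and 4 were lower (6.53% of all genes). In KO cells 5 of 35 were higher (4.04% of all genes) and 4 were lower (4.38%). Rab27a, Rab3d, Sytl1 and Lyst were higher in GMPs in both genotypes, and Rab27b, Rab37, Rab38 and Cplx2 were lower in both. The median log2 fold change was -0.13 over the members and -0.02 over all genes in WT cells, and -0.05 and -0.03 in KO cells.

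Rab27a, which recruits granules to the cell cortex, was at 23.8, 28.9, 30.5 and 29.4 nRPKM in the WT CMP libraries and at 72.8, 77.5, 72.9 and 71.6 in the WT GMP libraries. In KO cells it was at 31.1, 21.7, 36.0 and 33.6 in CMPs and at 75.3, 73.4, 76.7 and 70.9 in GMPs. No GMP library overlapped a CMP library, and the log2 fold change was 1.40 ± 0.11 (SE, edgeR adjusted p = 6.75e-06) in WT and 1.31 ± 0.19 (edgeR adjusted p = 0.00138) in KO cells. Its paralogue Rab27b, the partner in granule docking in mast cells and platelets, went the other way. Rab27b was at 5.28, 6.33, 4.92 and 4.90 nRPKM in WT CMPs and at 0.302, 0.380, 0.171 and 0.332 in WT GMPs. The KO CMP libraries gave 6.20, 6.33, 4.95 and 4.14 and the KO GMP libraries 0.476, 0.335, 0.142 and 0.165. Again the cell types did not overlap, with log2 fold changes of -4.15 ± 0.24 (edgeR adjusted p = 1.32e-06) in WT and -4.22 ± 0.40 (edgeR adjusted p = 0.000182) in KO cells. Rab27a thus made up 83.9% ± 2.31 of the Rab27 level in WT CMPs and 99.6% ± 0.115 in WT GMPs.

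Other granule Rabs also differed. Rab3d, a Rab of secretory granules in exocrine and mast cells, ran from 14.4 to 18.3 nRPKM over the 8 CMP libraries (median 15.8) and from 36.1 to 40.8 over the 8 GMP libraries (median 38), with no overlap and a log2 fold change of 1.29 ± 0.09 in WT cells. Rab37, a Rab found on mast cell granules, ran from 25.0 to 58.3 in CMPs and from 6.59 to 13.04 in GMPs, a log2 fold change of -1.77 ± 0.23 in WT and -1.76 ± 0.27 in KO cells. The highest CMP value of Rab37 was in KO library 2, without which the KO log2 fold change was -1.48 (edgeR adjusted p = 0.000562). Rab38 was at 64.1 to 181 nRPKM in CMPs and 33.9 to 59.0 in GMPs, and its log2 fold change was -1.21 ± 0.17 in WT cells. In KO cells the Rab38 value was -1.47 ± 0.28, and it was -1.17 (edgeR adjusted p = 0.00173) without KO CMP 2, the highest library. That call was lost without any 1 of 6 libraries (KO CMP 3 or 4, or KO GMP 1, 2, 3 or 4), where the edgeR adjusted p was 0.0131 to 0.0234. Rab32, the paralogue of Rab38 in the biogenesis of lysosome-related organelles, was at 27.6 to 63.4 nRPKM in CMPs and 59.4 to 94.7 in GMPs and did not reach the fold limit (log2 fold change 0.81 ± 0.15 in WT). The share of Rab38 in the summed Rab32 and Rab38 level was 70.4% ± 1.81 in WT CMPs and 36.6% ± 2.79 in WT GMPs.

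Among effectors and regulators, Sytl1 (Slp1, a Rab27 effector) ran from 1.66 to 2.96 nRPKM in CMPs and from 4.53 to 8.04 in GMPs, with a log2 fold change of 1.70 ± 0.21 in WT and 1.65 ± 0.22 in KO cells. Lyst, the protein lost in Chediak-Higashi syndrome and in beige mice with giant granules, ran from 0.362 to 0.883 in CMPs and from 1.25 to 3.38 in GMPs. Its log2 fold change was 2.30 ± 0.28 in WT and 2.06 ± 0.28 in KO cells, and the ranges did not overlap. Cplx2, the complexin that clamps and promotes SNARE zippering, fell from 0.757, 0.695, 0.99 and 0.737 nRPKM in WT CMPs to 0.0690, 0.0637, 0.0641 and 0.0416 in WT GMPs. In KO cells it was at 1.42, 0.585, 0.623 and 0.474 in CMPs and at 0.0706, 0.0615, 0.00410 and 0 in GMPs. The log2 fold change of Cplx2 was -3.71 ± 0.27 (edgeR adjusted p = 3.79e-06) in WT and -4.39 ± 0.84 (edgeR adjusted p = 0.00581) in KO cells. The KO call of Cplx2 was lost without KO CMP 3 or 4 or without KO GMP 1, 2 or 3 (edgeR adjusted p 0.0124 to 0.0166). Sytl3 was called in KO cells, was too low to be tested in WT cells, and is described with BMMCs, and whether its change differed by genotype is covered by the interaction test below.

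Over both genotypes, all 8 GMP libraries were above all 8 CMP libraries for 7 of 37 members with at least 10 reads in 4 or more libraries (8.51% of 16883 genes) and below them for 6 (8.13% of genes). Beside these results, late neutrophil markers summed to 818 to 5155 nRPKM in GMPs and 10.3 to 80.1 in CMPs, eosinophil markers to 1171 to 4253 and 8.74 to 88.2, and basophil markers to 1635 to 2495 and 23.3 to 75.2. Megakaryocyte and platelet markers summed to 800 to 2841 nRPKM in CMPs and 41.7 to 111 in GMPs, and erythroid markers to 572 to 1147 and 21.2 to 48.3. All of these markers were detected in both progenitors and none was at 0 in every library of either, although the late neutrophil marker Ltf was at 0 in WT CMP 2. The part of such cells in the differences was not tested. In bulk libraries fewer cells of a type and less RNA per cell cannot be told apart.

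**Figure D2:**
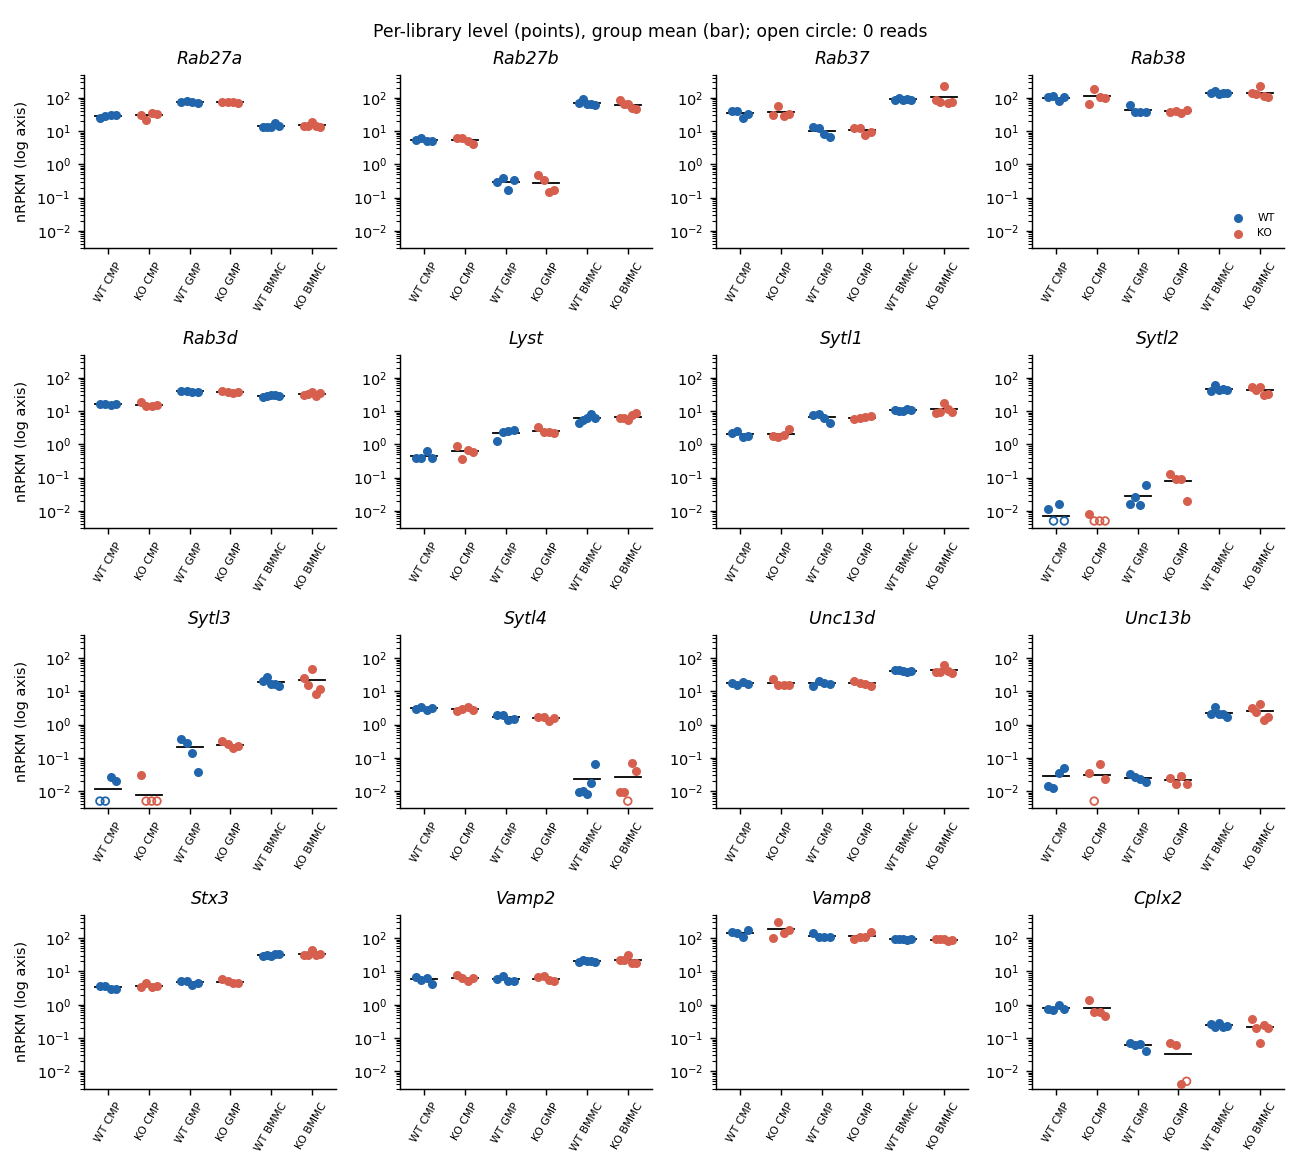
nRPKM on a log axis for 16 of the genes in each library, with WT in blue and KO in red, a bar at each group mean and an open circle for a library with 0 reads. Rab27a is highest in GMPs while Rab27b is lowest there and highest in BMMCs, and the WT and KO points of each cell type lie side by side.

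The comparison of BMMCs with progenitors asks how the machinery of cultured mast cells differs from that of the sorted progenitors. The sequenced progenitors came from female mice and were not the cells that the cultures were grown from. Rises and falls below are differences between these groups, not changes followed in the same cells. Against WT GMPs, 20 of 37 members tested were higher in WT BMMCs (27.3% of all genes were called higher) and 3 were lower (24.4% of all genes). Against KO GMPs the KO BMMC counts were 19 higher (25.6% of all genes) and 3 lower (22.3%) of 37. Against WT CMPs, 18 of 37 were higher (29.6%) and 5 lower (27.9%), and against KO CMPs 16 of 36 were higher (26.2%) and 5 lower (26%). The members' median log2 fold change was 1.15, 1.20, 0.82 and 0.98 in these 4 comparisons, where the median over all genes lay between -0.01 and 0.03. Without KO BMMC 3 the KO counts were 19 higher and 3 lower against GMPs, and 15 and 5 against CMPs (shares of all genes not given for this setting). In all 4 comparisons 15 members were called higher (Sytl2, Sytl3, Unc13b, Rab27b, Stx3, Syt9, Vamp2, Rab5a, Syt11, Snap29, Lyst, Stx7, Nsf, Rab7 and Unc13d) and 2 lower (Sytl4 and Rab27a). Without reference to any test, every BMMC library was above all 16 progenitor libraries for 21 of 37 members (23.2% of genes) and below all of them for 2 (19.3% of genes). These counts and the calls include members that passed the read filter only through the cells where they were high. Syt9, Sytl2 and Sytl3 were too scarce to be tested between CMP genotypes, and Sytl4 and Syt3 between BMMC genotypes. Against those cells a result in the other direction could hardly arise for them. The shares over all genes were taken under the same filter.

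The Rab27 pair changed places. Rab27b was at 67.8, 89.7, 63.5, 65.4 and 61.5 nRPKM in WT BMMCs and at 83.9, 64.1, 66.2, 48.8 and 46.3 in KO BMMCs, above every progenitor library. The log2 fold change of Rab27b was 7.77 ± 0.25 over GMPs (edgeR adjusted p = 1.08e-10) and 3.60 ± 0.15 over CMPs in WT cells, and 7.68 ± 0.47 and 3.41 ± 0.25 in KO cells. Rab27a was at 13.3, 13.4, 13.52, 17.5 and 14.3 nRPKM in WT BMMCs and at 14.4, 14.0, 19.0, 14.2 and 12.98 in KO BMMCs, below every progenitor library. The log2 fold change of Rab27a was -2.45 ± 0.10 from WT GMPs (edgeR adjusted p = 4.07e-10) and -1.06 ± 0.11 from WT CMPs. The value from WT CMPs was -1.0 with DESeq2 size factors, just short of the fold limit. Rab27b held 82.6% ± 3.00 (SD, n = 5) of the Rab27 level in WT BMMCs and 80.1% ± 3.46 in KO BMMCs, against 0.399% ± 0.115 (n = 4) in WT GMPs. The summed level of the pair was 75.7 to 103 nRPKM in WT BMMCs and 71.9 to 77.9 in WT GMPs.

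Rab37 rose to 84.4, 102, 84.5, 94.4 and 86.7 nRPKM in WT BMMCs, a log2 fold change of 3.08 ± 0.20 over GMPs and 1.29 ± 0.14 over CMPs. In KO BMMCs it was at 85.6, 76.6, 227, 70.3 and 72.8, where library 3 was the high one. The KO log2 fold change of 1.42 ± 0.41 over CMPs was not called (edgeR adjusted p = 0.0101). Without that library the KO log2 fold change over GMPs was 2.77 (edgeR adjusted p = 5.33e-08) in place of 3.24 ± 0.42. Rab37 shares its locus with Cd300lf on the opposite strand, whose mean was 106 nRPKM in WT BMMCs, 0.182 in WT GMPs and 0.00567 in WT CMPs. Whether strand was used in counting is not given in the sources used here, so part of the BMMC level of Rab37 could not be separated from Cd300lf. Rab38 was at 138, 157, 134, 136 and 139 nRPKM in WT BMMCs, 3.08-fold above WT GMPs (log2 fold change 1.62 ± 0.15), but only 0.40 ± 0.11 on the log2 scale above WT CMPs. The endosomal Rabs were higher than in both progenitors. Rab5a, of early endosomes, ran from 17.6 to 26 nRPKM in BMMCs against 5.29 to 8.57 in the 16 progenitor libraries, with log2 fold changes of 1.83 ± 0.11 over WT GMPs and 1.69 ± 0.11 over WT CMPs. Rab7 ran from 90.01 to 146 against 35.5 to 56.1, with log2 fold changes of 1.28 ± 0.08 and 1.61 ± 0.08. Rab3a, a neuronal vesicle Rab, Rab3d, Rab32 and Rab11a, of recycling endosomes, passed the call in none of the 4 comparisons. The log2 differences of Rab3d were -0.54 ± 0.08 from WT GMPs and 0.73 ± 0.08 from WT CMPs.

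The Rab27 effectors differed in the size and direction of their changes. Sytl2 (Slp2) had 0 to 4 reads in CMP libraries and 3 to 29 in GMP libraries, and 2998 to 4706 in BMMC libraries. Its level was 40.9, 61.7, 44.2, 45.1 and 42.7 nRPKM in WT BMMCs and 53.5, 42.8, 54.8, 30.6 and 32.5 in KO BMMCs, against 0.0154 to 0.125 over the 8 GMP libraries. The log2 fold change over WT GMPs was 10.50 ± 0.28 (edgeR adjusted p = 3.19e-11). In KO CMPs the 4 libraries held 2 Sytl2 reads together against 17628 in KO BMMCs, a ratio per read depth of 12515 with a 95% counting interval of 3464 to 103347. Sytl3 (Slp3) was at 20.8, 27.5, 17.1, 16.4 and 14.6 nRPKM in WT BMMCs and at 24.9, 15.7, 46.2, 8.38 and 11.9 in KO BMMCs. In GMPs Sytl3 was at 0.372, 0.276, 0.137 and 0.0380 in WT and at 0.311, 0.262, 0.198 and 0.232 in KO cells, and 5 of 8 CMP libraries had 0 reads with at most 5 in the others. Over GMPs the log2 fold change was 6.45 ± 0.42 in WT and 6.30 ± 0.59 in KO cells, where it was 5.81 without KO BMMC 3 (edgeR adjusted p = 6.86e-08). The higher Sytl3 level in KO GMPs than KO CMPs (log2 fold change 4.60 ± 0.89, edgeR adjusted p = 0.00617) was lost without any 1 of 6 libraries (KO CMP 3 or 4, or KO GMP 1, 2, 3 or 4; edgeR adjusted p 0.0159 to 0.0236). Sytl3 overlaps Ezr on the opposite strand, and Ezr was at a mean of 35.6 nRPKM in WT CMPs and 67.2 in WT BMMCs, and reads of the pair could not be separated if strand was not used.

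Sytl4 (granuphilin), the effector that docks insulin granules in pancreatic beta cells, moved opposite to Sytl2 and Sytl3. It was at 2.95, 3.46, 2.72 and 3.20 nRPKM in WT CMPs and at 2.00, 1.91, 1.41 and 1.43 in WT GMPs, but at 0.00942, 0.00998, 0.00796, 0.0179 and 0.0673 in WT BMMCs. The BMMC libraries held 0 to 10 Sytl4 reads against 314 to 1115 in progenitor libraries, with log2 fold changes of -6.25 ± 0.38 from WT GMPs and -5.82 ± 0.58 from KO GMPs. Sytl1 was at 8.65 to 18.2 nRPKM in BMMCs, called higher than in CMPs (log2 fold change 2.29 ± 0.15 in WT) and not called over GMPs (0.61 ± 0.16 in WT). The makeup of the family differed in each cell type. Sytl4 held 60.04% ± 3.21 of the summed Sytl level in WT CMPs, Sytl1 held 77.2% ± 2.15 in WT GMPs, and Sytl2 held 60.9% ± 2.56 in WT BMMCs, with Sytl3 at 24.8% ± 3.24. The summed family level was 4.42 to 5.94 nRPKM in WT CMPs, 6.06 to 10.3 in WT GMPs and 68.1 to 99.1 in WT BMMCs.

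**Figure D3:**
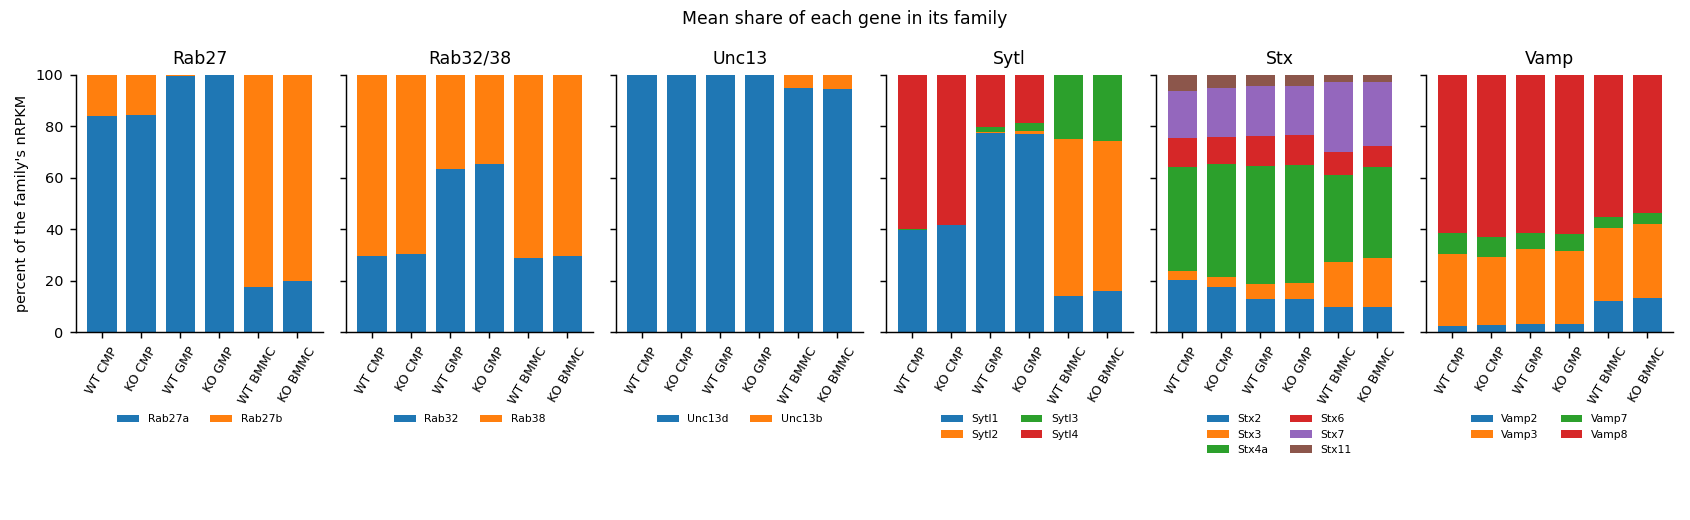
Mean percent of the summed nRPKM of a gene family that each member holds in each group, for 6 families (stacked bars, from 0 to 100%). Rab27b replaces Rab27a as the main Rab27 in BMMCs, and the main Sytl gene is Sytl4 in CMPs, Sytl1 in GMPs and Sytl2 in BMMCs.

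Munc13 proteins showed the same contrast of an abundant and a scarce paralogue. Unc13d (Munc13-4), the priming factor of cytotoxic and mast cell granules, was at 14.2 to 23.4 nRPKM in the 16 progenitor libraries and at 35.5 to 61.0 in BMMCs. Its log2 fold changes were 1.14 ± 0.10 over WT GMPs and 1.12 ± 0.09 over WT CMPs, and with scaling to library size alone these were 0.95 and 0.81. Unc13b (Munc13-2) was at 0.0147, 0.0122, 0.0359 and 0.0503 nRPKM in WT CMPs, at 0.0326, 0.0263, 0.0236 and 0.0191 in WT GMPs, and at 2.11, 3.34, 2.07, 2.06 and 1.75 in WT BMMCs. KO BMMCs had 3.26, 2.41, 4.24, 1.37 and 1.69. No BMMC library came near a progenitor library, and the log2 fold change was 6.38 ± 0.25 over WT GMPs (edgeR adjusted p = 4.90e-10) and 6.78 ± 0.45 over KO GMPs. Without KO BMMC 3 the latter was 6.53 (edgeR adjusted p = 1.92e-08). Unc13d nonetheless held 94.8% ± 1.10 of the summed level in WT BMMCs. The Munc18 proteins, which hold syntaxins ready, moved less. Stxbp2 (Munc18-2) was at 28.7 to 55.8 nRPKM in progenitors and 63.3 to 76.0 in BMMCs and reached the fold limit in no comparison (log2 difference 0.82 ± 0.08 from WT CMPs). Stxbp3 (Munc18-3) was called higher over GMPs (1.15 ± 0.11 in WT). In KO cells the Stxbp3 value was 1.05 ± 0.28, and that call was lost without any 1 of 8 libraries (all but KO BMMC 3), at an edgeR adjusted p of 0.0128 to 0.0193.

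The promoters of 4 members are shown because they belong to 2 of the members that rose from low levels to BMMCs and to the 2 that fell in all 4 comparisons. Each is 300 bases long, from 250 bases before the RefSeq start, read 5′ to 3′ on the strand of the gene (GRCm38.p6). Capitals mark matches, on either strand, to the E-box letters CACGTG or CATGTG and to the GATA letters AGATAA or TGATAA, the kinds of site read by the mast cell factors MITF and GATA2. Sytl3 lies at chr17:6658809-6659108 and Unc13b at chr4:43058703-43059002, both on the plus strand, and both rose in BMMCs. Sytl4 at chrX:133981763-133982062 (minus strand) and the upstream start of Rab27a at chr9:73044560-73044859 (plus strand) belong to genes that fell.
Sytl3: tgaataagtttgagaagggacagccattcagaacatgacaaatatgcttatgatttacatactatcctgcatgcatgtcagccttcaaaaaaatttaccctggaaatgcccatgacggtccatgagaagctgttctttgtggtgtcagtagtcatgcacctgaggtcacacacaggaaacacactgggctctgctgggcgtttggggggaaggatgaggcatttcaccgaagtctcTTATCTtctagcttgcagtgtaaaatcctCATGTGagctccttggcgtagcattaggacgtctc
Unc13b: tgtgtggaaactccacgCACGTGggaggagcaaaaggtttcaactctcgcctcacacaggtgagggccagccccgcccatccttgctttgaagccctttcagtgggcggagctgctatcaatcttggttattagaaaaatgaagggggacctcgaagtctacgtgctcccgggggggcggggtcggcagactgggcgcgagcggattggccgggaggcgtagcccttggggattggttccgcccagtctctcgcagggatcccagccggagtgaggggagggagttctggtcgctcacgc
Sytl4: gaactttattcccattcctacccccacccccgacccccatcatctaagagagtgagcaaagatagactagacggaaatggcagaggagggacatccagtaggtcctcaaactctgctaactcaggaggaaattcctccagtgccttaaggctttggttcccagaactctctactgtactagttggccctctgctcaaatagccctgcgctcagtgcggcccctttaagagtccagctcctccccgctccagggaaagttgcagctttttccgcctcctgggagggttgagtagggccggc
Rab27a: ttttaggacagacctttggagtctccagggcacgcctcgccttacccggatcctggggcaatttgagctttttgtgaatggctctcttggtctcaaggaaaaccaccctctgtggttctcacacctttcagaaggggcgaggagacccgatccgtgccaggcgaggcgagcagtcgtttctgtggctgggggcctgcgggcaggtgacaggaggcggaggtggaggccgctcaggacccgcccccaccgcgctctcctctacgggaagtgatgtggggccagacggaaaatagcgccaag
The Sytl3 window holds an AGATAA match, printed as its reverse complement, 14 bases before the start and a CATGTG match 16 bases after it. The Unc13b window holds 1 CACGTG match 233 bases before the start, and the other windows hold none of the 4 motifs. A second, downstream Rab27a promoter, not printed, holds 1 CACGTG match 246 bases before its start. The Syt9 promoter, also not printed, holds none of the 4 motifs, although Syt9 was called higher in all 4 BMMC comparisons. Of 32851 RefSeq promoters of this length, 7.15% held CACGTG, 14.2% CATGTG, 11.2% AGATAA and 9.05% TGATAA. Entries were found for 31 of the 40 members, with 38 promoters in all, of which 18.4% held CACGTG, 2.63% CATGTG, 5.26% AGATAA and 10.5% TGATAA. By direction, CACGTG was in 23.1% of the 13 promoters of members called higher in all 4 BMMC comparisons. It was in 33.3% of the 3 promoters of members called lower and in 13.6% of the 22 others. The printed windows and these small sets do not show a link between motif and direction. The 13 promoters of members called higher in all 4 BMMC comparisons had a median GC content of 62.0%, the 22 promoters of members without a call in all 4 had 62.3%, and all promoters had 52.7%. A match is a run of letters and not a measured site.

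Of the syntaxins, Stx3, a plasma membrane and granule Q-SNARE of mast cells, changed the most. It was at 3.68, 3.76, 3.06 and 2.93 nRPKM in WT CMPs, at 5.24, 5.22, 3.89 and 4.36 in WT GMPs and at 28.5, 31.3, 30.0, 33.0 and 33.5 in WT BMMCs. The log2 fold change of Stx3 was 2.65 ± 0.12 over WT GMPs (edgeR adjusted p = 1.06e-09) and 3.12 ± 0.12 over WT CMPs, with no overlap between BMMC and progenitor libraries. The late endosomal Stx7 was at 11.2 to 25.5 nRPKM in progenitors and 29.7 to 55.9 in BMMCs, with log2 fold changes of 1.51 ± 0.10 and 1.42 ± 0.11 over WT GMPs and CMPs. The other syntaxins passed no call against progenitors. Stx4a, the main plasma membrane syntaxin by level, was at 31.8 to 44.6 nRPKM in progenitors and 54.4 to 77.7 in BMMCs (log2 differences 0.60 ± 0.08 and 0.62 ± 0.09 from WT GMPs and CMPs). Stx2, of the plasma membrane, Stx6, of the trans-Golgi network, and Stx11, the syntaxin of cytotoxic granules that is lost in a form of familial haemophagocytic disease, differed by -0.20 to 0.65 on the log2 scale in the WT comparisons. Stx3 held 3.72% ± 0.390 of the summed syntaxin level in WT CMPs, 5.88% ± 0.912 in WT GMPs and 17.8% ± 0.790 in WT BMMCs.

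The Snap partners of the syntaxins were higher in BMMCs. Snap23, the plasma membrane Q-SNARE of mast cell degranulation, ran from 14.2 to 23.1 nRPKM in GMPs, from 17.9 to 62.6 in CMPs and from 68.3 to 115 in BMMCs. Its log2 fold change was 2.06 ± 0.15 over WT GMPs and 1.25 ± 0.15 over WT CMPs, while 0.99 ± 0.33 over KO CMPs fell short of the call and lay between 0.79 and 1.37 with any 1 library left out. The highest CMP and BMMC values of Snap23 came from KO libraries 2 and 3. Snap29, an intracellular Snap, was at 11.8 to 14.5 nRPKM in all 16 progenitor libraries and 35.3 to 46.3 in BMMCs, with log2 fold changes of 1.57 ± 0.08 and 1.52 ± 0.08. Snap29 overlaps Pi4ka on the opposite strand, which was at a mean of 11.5 nRPKM in WT GMPs and 29.4 in WT BMMCs, and reads of the pair could not be separated if strand was not used.

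Only 1 of the 4 R-SNAREs rose. Vamp2, the synaptic R-SNARE, was at 7.06, 5.49, 6.49 and 4.29 nRPKM in WT CMPs, at 5.85, 7.17, 5.18 and 5.29 in WT GMPs and at 19.5, 22.5, 20.8, 20.3 and 19.4 in WT BMMCs. Its log2 fold change was 1.71 ± 0.11 over WT GMPs and 1.72 ± 0.14 over WT CMPs. Vamp8 differed by -0.44 ± 0.11 from WT GMPs and -0.75 ± 0.12 from WT CMPs on the log2 scale and passed the call only against KO CMPs (-1.12 ± 0.28), which was -0.72 without KO CMP 2, the library with the highest Vamp8 level (309 nRPKM against 104 to 178 in the other CMP libraries). The KO CMP call of Vamp8 was also lost without KO CMP 4 or KO BMMC 1, 2, 4 or 5 (edgeR adjusted p 0.0108 to 0.0141). Vamp7 (TI-VAMP) was called lower than in CMPs (-1.51 ± 0.13 in WT, -1.81 ± 0.36 in KO) and not called against GMPs (-0.91 ± 0.18 in WT). KO CMP 2 had the highest Vamp7 level, at 41.7 nRPKM against 8.58 to 23.7 in the other CMP libraries, and without it the KO value was -1.37 (edgeR adjusted p = 0.00226). Vamp3 was at 42.8 to 51.5 nRPKM in BMMCs, 46.7 to 74.2 in GMPs and 44.4 to 126 in CMPs and was called in no comparison. Vamp2 held 2.54% ± 0.8294 of the summed Vamp level in WT CMPs, 3.12% ± 0.776 in WT GMPs and 12.2% ± 0.833 in WT BMMCs, where Vamp8 stayed the largest.

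Among calcium sensors, Syt11, a synaptotagmin that does not bind calcium, was at 0.519 to 1.04 nRPKM in progenitors and 2.26 to 3.33 in BMMCs (log2 fold change 1.76 ± 0.17 over WT GMPs). Syt9, a calcium-binding synaptotagmin, had 0 reads in all 8 GMP libraries, 0 to 12 in CMPs and 5 to 48 in BMMCs. It was therefore at least 11.5-fold higher in WT BMMCs than the floor of 3 reads per library allows in WT GMPs, and at least 10.6-fold higher in KO cells. The BMMC level of Syt9 was low, at 0.386, 0.0791, 0.189, 0.189 and 0.189 nRPKM in the WT libraries. Syt3 went down, from 15 to 79 reads in WT progenitor libraries to 1 to 3 in WT BMMC libraries, and the ratio of WT GMP to WT BMMC reads per read depth was 16.5 (95% counting interval 8.23 to 38.8). Cplx2 was at 0.201 to 0.361 nRPKM in 9 BMMC libraries and 0.0712 in KO library 3, between GMPs and CMPs. Its log2 fold change was 1.91 ± 0.27 over WT GMPs and -1.81 ± 0.20 from WT CMPs. Over KO GMPs the Cplx2 value was 2.49 ± 0.84 and was not called (edgeR adjusted p = 0.0215). Against KO CMPs the Cplx2 value was -1.95 ± 0.48, and that call was lost without KO CMP 1 (-1.44, edgeR adjusted p = 0.0155) or without KO BMMC 2 or 5 (edgeR adjusted p 0.0118 to 0.0122).

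Lyst and the recycling factors were higher in BMMCs. Lyst was at 4.45, 5.38, 6.14, 8.15 and 6.36 nRPKM in WT BMMCs, against 1.25, 2.40, 2.47 and 2.71 in WT GMPs and 0.381, 0.388, 0.648 and 0.396 in WT CMPs. Its log2 fold change was 1.37 ± 0.22 over WT GMPs and 3.65 ± 0.22 over WT CMPs, so the order CMP, GMP, BMMC held without overlap between any of the libraries. Nsf, the ATPase, was at 7.48 to 18.9 nRPKM in progenitors and 32.8 to 46.3 in BMMCs (1.35 ± 0.12 over WT GMPs), while Napa (alpha-SNAP) was the steadiest member, with group means from 46.4 to 69.6 nRPKM and no call. The ratio of the highest to the lowest group mean was 1.5 for Napa, 10.3 for Stx3, 120 for Unc13b and 248.9 for Rab27b.

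**Figure D4:**
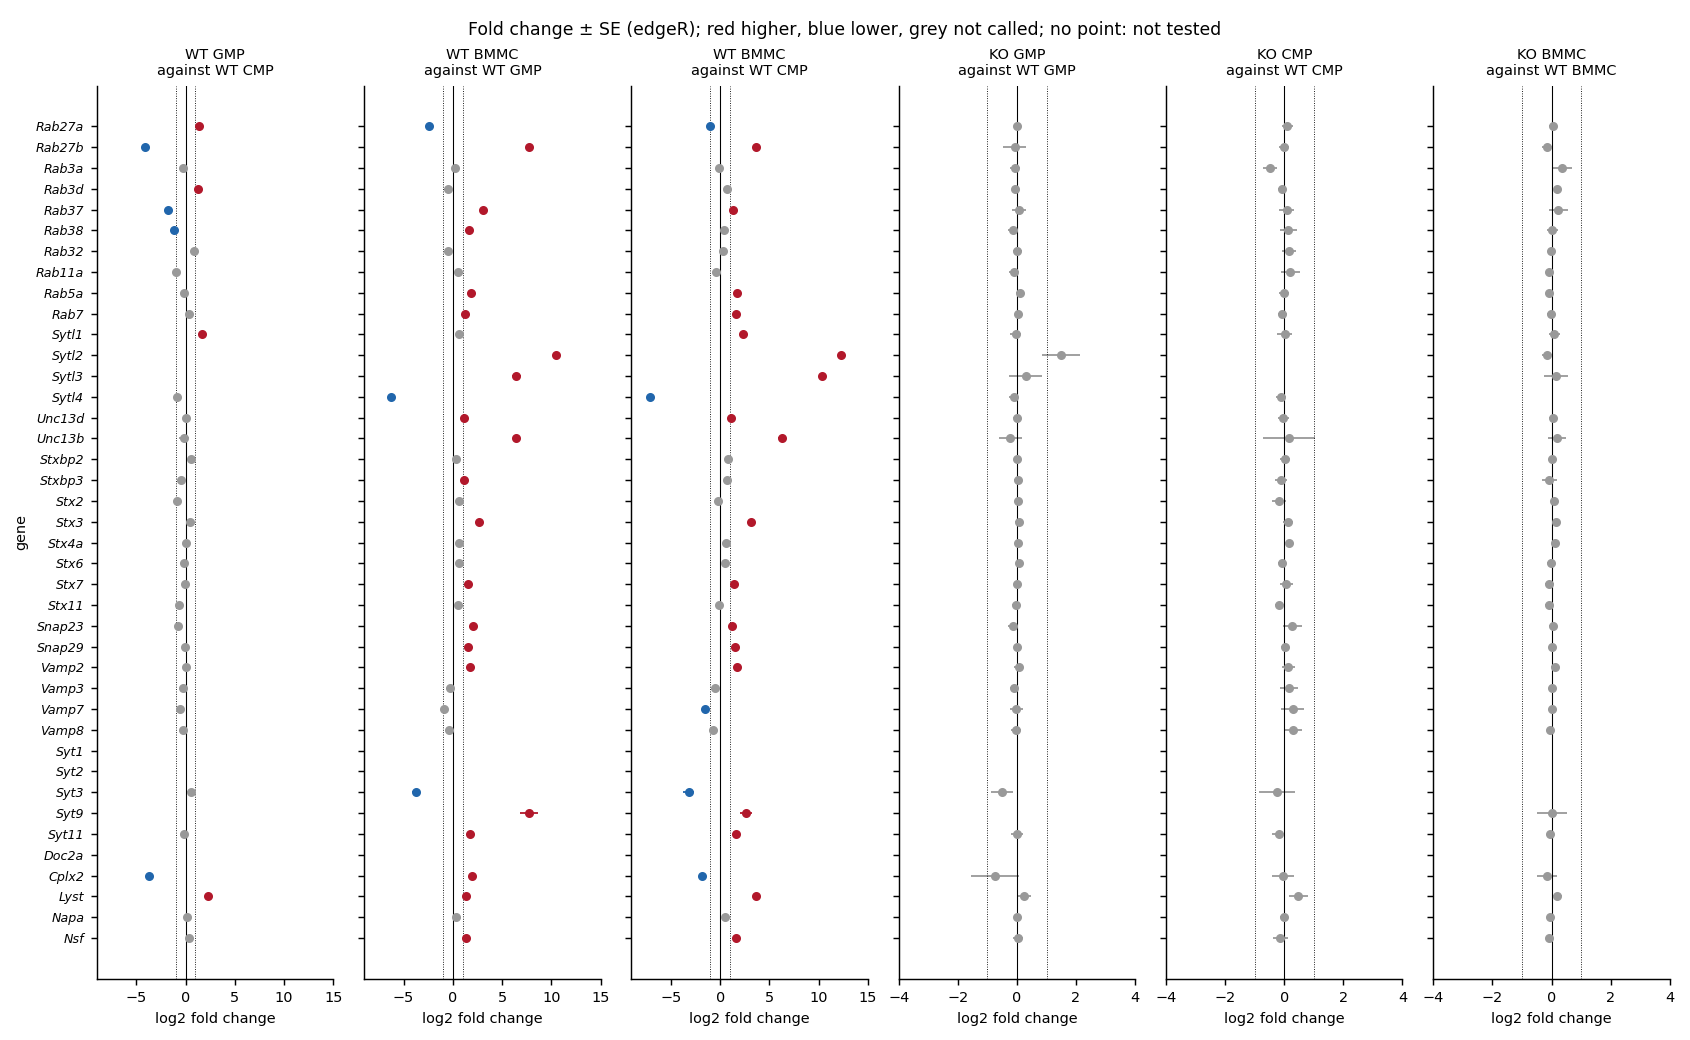
Log2 fold change ± SE of each member (rows) in 6 comparisons (panels), with red for called higher, blue for called lower, grey for not called and dotted lines at a fold of 2. In the panels of BMMCs against progenitors red points outnumber blue ones, and in the panels of KO against WT all points are grey.

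Beside these results, macrophage markers summed to 91.7 to 1330 nRPKM in BMMCs against 24.9 to 75.9 in progenitors (6 of 6 detected, none at 0 in any library). Of these, Cd163 did not rise, at 0.208 to 0.449 nRPKM in BMMCs, 0.233 to 0.814 in GMPs and 0.743 to 1.38 in CMPs. Dendritic cell markers summed to 70.9 to 1785 against 39.5 to 140 (6 of 6 detected), but their members did not move together. The antigen presentation gene Cd74 was at a mean of 777.7 nRPKM in WT BMMCs, 12.4 in WT GMPs and 14.3 in WT CMPs. The progenitor and dendritic receptor Flt3 was at 0.136, 5.73 and 36.4 and the dendritic factor Zbtb46 at 0.531, 0.135 and 1.59 in the same groups, and Flt3 was at 0 in KO BMMC 3. Of the lists given above for progenitors, the BMMC sums were 843 to 1231 nRPKM for megakaryocyte and platelet markers (3 of 5 with a mean of at least 1), 107 to 611 for basophil, 13.6 to 108 for late neutrophil, 2.73 to 6.75 for eosinophil and 0.142 to 0.785 for erythroid markers. The part of such cells in the BMMC results was not tested. KO BMMC 3 had the lowest macrophage sum, and its mast cell markers had the highest sum at 76155 nRPKM. The mast cell markers did not all move together there. Hdc was lowest in that library, at 88.6 nRPKM against 124.8 to 174.6 in the other 9, and Tpsb2 was within their range. The remaining markers of that list were highest there. In that library Rab27b was at 66.2, Sytl2 at 54.8, Sytl3 at 46.2, Unc13b at 4.24 and Stx3 at 45.7 nRPKM. Of the 33 members with at least 10 reads in every BMMC library, 17 (51.5%) were above all other 9 libraries in KO BMMC 3 and 8 (24.2%) were below all of them. Over all 12450 genes with that many reads the shares were 36.5% and 34.9%. Sytl3 was 2.82-fold, Rab37 2.69-fold, Rab3a 2.62-fold and Unc13b 2.05-fold the median of the other 9, and Stxbp3 (0.389-fold), Stx7 (0.608-fold), Stx6 (0.665-fold) and Rab7 (0.668-fold) lay below. Rab27b, Vamp8 and Rab11a were within the range of the others. These are values of 1 library and have no test.

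**Figure D5:**
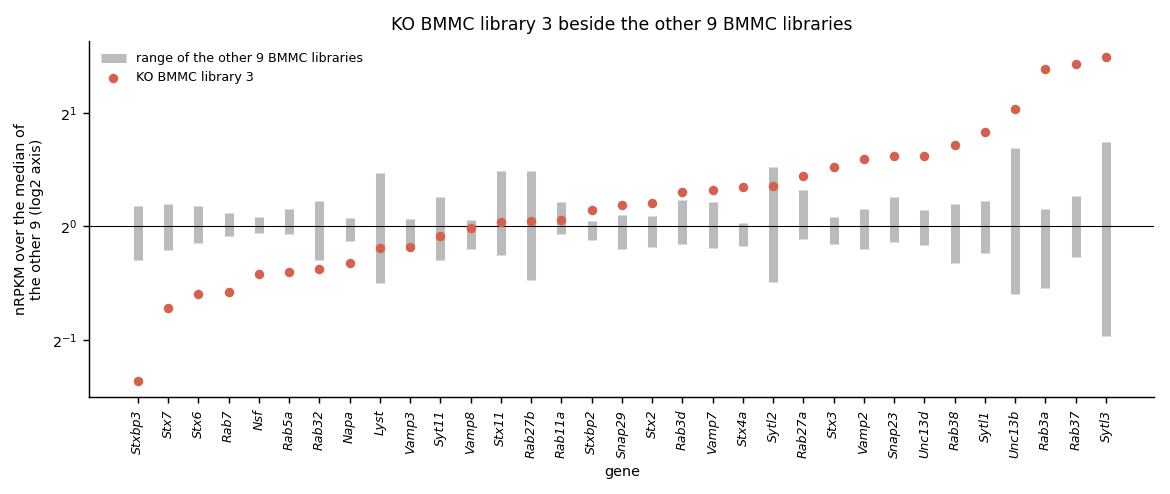
Level of 33 members in KO BMMC library 3 (red points) divided by the median of the other 9 BMMC libraries, on a log2 axis, with grey bars for the range of those 9. The points run from 0.389 for Stxbp3 to 2.82 for Sytl3, and 17 lie above and 8 below the bars.

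The comparison of KO with WT cells asks whether loss of the protease altered transcripts of the machinery. No member was called in any of the 3 cell types. In GMPs 0 of 36 members were called higher (0% of all genes) and 0 lower (0.00681% of all genes, which was Prss57 alone). In CMPs the counts were 0 of 34 higher (0%) and 0 lower (0.00670%, again Prss57), and in BMMCs 0 of 35 in either direction (0% of all genes). The smallest edgeR adjusted p of a member was 1 in each of these comparisons. DESeq2 and limma voom also called 0 members by the rule used for calls. At an unadjusted p under 0.05, edgeR gave 1 member and 119 genes in GMPs, 0 members and 76 genes in CMPs, and 1 member and 332 genes in BMMCs. These genes were 0.810%, 0.510% and 2.38% of those tested, a smaller share than the p limit of 0.05 sets for no effect. The 95% interval of the difference excluded a fold of 2 for 31 of 36 members in GMPs, 27 of 34 in CMPs and 32 of 35 in BMMCs. Rab27a differed by 0.01 on the log2 scale in GMPs (interval -0.17 to 0.19) and by 0.05 in BMMCs (-0.22 to 0.31). Rab27b differed by -0.17 in BMMCs (-0.56 to 0.21), Unc13d by 0.06 (-0.24 to 0.37) and Stx3 by 0.14 (-0.11 to 0.39). A fold of 2 was not excluded for Cplx2, Unc13b, Sytl2, Syt3 and Sytl3 in GMPs, for Rab3a, Sytl3 and Syt9 in BMMCs, and for Lyst, Snap23, Unc13b, Syt3, Rab3a, Vamp7 and Vamp8 in CMPs. These include scarce transcripts, such as Unc13b in CMPs (-1.81 to 2.14) and Cplx2 in GMPs (-2.55 to 1.07), and abundant ones, such as Vamp7 (-0.57 to 1.13) and Vamp8 (-0.40 to 1.00) in CMPs.

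The members with an unadjusted p under 0.05 were Sytl2 in GMPs and Rab3d in BMMCs. Sytl2 had 3 to 12 reads per library in WT GMPs and 3 to 29 in KO GMPs, at 0.0166, 0.0258, 0.0154 and 0.0583 nRPKM in WT and 0.125, 0.0937, 0.0894 and 0.0203 in KO libraries. The groups overlapped, and the log2 difference was 1.49 ± 0.64 (edgeR adjusted p = 1). Rab3d was at 27.0 to 30.6 nRPKM in WT BMMCs and 29.0 to 37.1 in KO BMMCs, a log2 difference of 0.18 ± 0.08 (edgeR adjusted p = 1). The tests of genotype against cell type gave 0 of 37 members in either direction (0% of all genes) for GMPs and CMPs and 0 of 37 (0%) for BMMCs and GMPs. At an unadjusted p under 0.05 edgeR gave 0 members and 169 genes (1.06% of genes) in the first. In the second it gave 2 members (Sytl2 and Rab3d) and 324 genes (2.08% of genes). The differences between CMPs and GMPs and between GMPs and BMMCs were therefore not shown to depend on genotype. For BMMCs against CMPs the difference between genotypes was not tested, so the calls of Rab37 and Snap23 in WT cells only and of Vamp8 in KO cells only are not shown to differ either.

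The neighbouring genes of the pathway were read from 6 lists with 131 genes, none of them a member. In WT BMMCs against WT GMPs, 30 of 98 tested were called higher and 7 lower, where 27.3% and 24.4% of all genes were called. By list these were 5 and 2 of 20 other SNAREs and NSF partners, 3 and 1 of 11 other Munc13 and Munc18 proteins, 3 and 0 of 3 other synaptotagmins and complexins, 11 and 2 of 31 other Rabs and Rab27 effectors, 3 and 0 of 9 exocyst subunits, and 5 and 2 of 24 factors of lysosome-related organelle biogenesis. The median log2 fold change over the 98 genes was 0.47. In WT GMPs against WT CMPs 5 of 98 were higher and 3 lower (6.28% and 6.53% of all genes), and in the genotype comparisons 0 of 98 to 101 were called. Mlph (melanophilin), which links Rab27a to the motor myosin Va, was at 0.0802 to 0.469 nRPKM in WT GMPs and 5.73 to 7.72 in WT BMMCs (log2 fold change 4.40 ± 0.34). Myo5a, myosin Va itself, was at 3.00 to 4.97 and 19.5 to 24.9 (2.33 ± 0.14). The synaptotagmin Syt13 and Napb (beta-SNAP), the neuronal NSF adaptor, were called higher as well but stayed at or below 0.357 nRPKM in WT libraries. Of those called lower, Baiap3, a Munc13-like protein, had 247 to 401 reads in WT GMPs and 0 or 1 in WT BMMCs. Vamp5, a muscle-enriched Vamp, was at 73.0 to 114 nRPKM in WT CMPs, 8.76 to 13.5 in WT GMPs and 0.762 to 1.33 in WT BMMCs (-3.35 ± 0.20 from GMPs). Ap3s1, a subunit of the AP-3 sorting adaptor (-2.47 ± 0.19), and Rab3ip, an exchange factor for Rab8 (-2.02 ± 0.11), were called lower too.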

How the data were processed

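Bulk RNA sequencing of 26 libraries in 6 groups was analysed. The authors prepared stranded total RNA libraries, used GSNAP within HTSeqGenie for single-end alignment against GRCm38, and deposited, for each gene, the count of uniquely aligned reads and the size-factor-adjusted RPKM (nRPKM), which gave the levels here. Counts were tested with edgeR 4.0.16 (quasi-likelihood, robust, TMM, filterByExpr) in R 4.3.3 between the groups compared only, and p-values were adjusted by Benjamini-Hochberg across every gene tested. Calls needed adjusted p below 0.01 plus a change of 2-fold or more. SE and 95% intervals come from the same fits. The fits were tested on simulated data. Alternatives used limma 3.58.1 (voom), DESeq2 1.42.0, other scalings, filters, call limits and left-out libraries. The members, the pathway and marker lists and the rules for naming genes (members called between cell types, the most abundant and those at the floor) were chosen with earlier results of these data known. Symbols were matched through GENCODE M21, and promoters come from RefSeq. Libraries come from separately numbered samples, and where these do not stand for separate mice or cultures, p-values measure only the spread between samples. Counting intervals cover counting error only. No 2 libraries were identical.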

Additional observations from a re-analysis of the deposited data

Results flagged for a closer look

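For 39 of 223 member and group pairs with 4 or 5 libraries, the highest or lowest library lay apart from the others by Dixon's ratio, where chance alone gives about 1 in 20 such pairs (11.2). KO BMMC library 3 lay above its group for Rab27a at 19.0, Rab3a at 7.06, Rab37 at 227.3, Unc13d at 61.0, Stx3 at 45.7, Stx4a at 77.7, Snap23 at 115.5, Vamp7 at 8.65, Sytl1 at 18.2 nRPKM and below its group for Rab7 at 90.0, Stxbp3 at 2.62 nRPKM. WT BMMC library 4 lay above its group for Rab27a at 17.5, Rab11a at 47.1, Stx11 at 7.06 nRPKM and below its group for Stxbp2 at 63.3, Stx2 at 15.2 nRPKM. WT GMP library 1 lay above its group for Rab38 at 59.0, Vamp3 at 74.2, Vamp8 at 148.5 nRPKM and below its group for Stx2 at 7.87, Syt11 at 0.519 nRPKM. WT BMMC library 2 lay above its group for Rab27b at 89.7, Rab38 at 156.5, Unc13b at 3.34, Sytl2 at 61.7 nRPKM. KO CMP library 1 lay above its group for Unc13d at 23.4, Sytl3 at 0.0312, Cplx2 at 1.42 nRPKM. KO GMP library 4 lay above its group for Snap23 at 18.2, Syt11 at 0.939 nRPKM. WT BMMC library 5 lay above its group for Sytl4 at 0.0673 nRPKM and below its group for Rab3a at 1.85 nRPKM. WT CMP library 3 lay above its group for Lyst at 0.648 nRPKM and below its group for Rab5a at 5.66 nRPKM. KO BMMC library 4 lay below its group for Vamp8 at 80.6 nRPKM. KO CMP library 2 lay above its group for Rab37 at 58.3 nRPKM. KO CMP library 3 lay below its group for Rab3a at 1.6 nRPKM. KO CMP library 4 lay above its group for Sytl1 at 2.96 nRPKM. WT BMMC library 1 lay below its group for Rab7 at 127.3 nRPKM. KO BMMC 3 accounted for 11 of the 39 pairs, and WT BMMC 4 and WT GMP 1 for 5 each. The share over all genes under this rule is not given, so these counts are not read as a trait of the members. Over 12450 genes, KO BMMC 3 was above all other 9 BMMC libraries for 36.5% and below all of them for 34.9%. The cause was not tested.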

How the results depend on the processing

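Of 424 counts of called members under the alternatives, 405 stayed within 1.5 times the reported count. Of 1768 fold changes of called members, 1712 kept the call, 56 lost it and none changed sign. With an adjusted p under 0.05 and no fold limit, WT GMPs against WT CMPs gave 8 higher and 11 lower, and the lower counts were 7 in KO GMPs against KO CMPs, 8 and 7 in WT and KO BMMCs against GMPs, and 8 in WT BMMCs against WT CMPs. In these comparisons, in that order, 37.8%, 21.5%, 81.5%, 73.9% and 83.6% of all genes passed that rule in either direction. The shares of members were 55.9%, 37.1%, 97.3%, 94.6% and 91.9%. Requiring at least 10 counts in every library left 1 lower in each BMMC comparison with GMPs and 3 in each with CMPs, since fewer genes were tested. Leaving out 1 library, the lower count ran from 2 (without KO CMP 3 or 4, or KO GMP 1, 2 or 3) to 7 (without KO CMP 1) in KO GMPs against KO CMPs, and from 3 (without KO BMMC 2 or 5) to 5 in KO BMMCs against KO CMPs. Leaving out KO BMMC 3 and KO CMP 2 together, a choice made after seeing the data, gave 18 higher and 5 lower in KO BMMCs against KO CMPs. With the replicate block, KO BMMCs against KO CMPs gave 2 lower, and 10 calls in all were lost. For the stricter filter, the left-out libraries and the replicate block, the shares of all genes called are not given. The counts under these settings are therefore not read as a trait of the members. Same-numbered samples correlated between -0.423 and 0.651 in their deviations from the group means. For GMPs and CMPs the values were -0.047 to 0.373 in WT and -0.005 to 0.651 in KO cells. With 4 or 5 pairs in a comparison, these values cannot show whether the numbers pair the samples. Scaling to library size alone gave a median over all genes as low as -0.31 (WT BMMCs against WT CMPs, -0.01 in the main fit) and ended 9 calls. With TMM factors 12 of 229 mean levels moved by more than their SD. Apart from the construction of the stricter filter, the cause was not tested. The few reads of Syt9, Syt3, Cplx2 and, in progenitors, Sytl2, Sytl3 and Unc13b limit the precision of their folds.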

Other observations

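Of 34 members, KO CMP 2 was above all other 7 CMP libraries for 13 and below all of them for 8. The share over all genes was not computed for this library, so these counts are not read as a trait of the members. Rab3a overlaps Mpv17l2 on the opposite strand, and Mpv17l2 was at a mean of 61.9 nRPKM in WT CMPs, 47.1 in WT GMPs and 37.9 in WT BMMCs, against 1.6 to 7.06 for Rab3a over all 26 libraries.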
